A study of Rattus rattus with 18 samples.

Results

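The miR-129 family was represented on the array by 3 probes, rno-miR-129-5p, rno-miR-129-1-3p and rno-miR-129-2-3p, out of 761 rat miRNA probes. The members were chosen by their names, all arms of the 2 miR-129 loci that the array carries, with earlier results of these arrays known, among them the difference of miR-129-2-3p between tMCAO and sham-operated rats. For that reason the levels of the 3 members and their tMCAO values are a description without a test. The data came from 18 single-colour arrays of 9 male Sprague Dawley rats, 3 that underwent transient middle cerebral artery occlusion (tMCAO), 3 labelled remote limb postconditioning (PostC) and 3 sham-operated controls, with 1 core and 1 peri sample from each rat. tMCAO is a stroke model in which a filament is pushed into the artery to block it and later pulled back, whereas a sham operation leaves the vessel open. The sources used here do not say whether the PostC rats also underwent tMCAO, nor give the rats' age. The methods of the study name 2 times of sacrifice after reperfusion without saying which applies to the arrays. The labels give the core samples as temporo-parietal cortex and the peri samples as striatum, while the methods of the study place the core in the striatum, so the regions are called only core and peri here. No transgene or deletion was involved, and all samples were bulk tissue, in which fewer cells of a type and less RNA per cell cannot be told apart.

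A miRNA is cut from a hairpin precursor whose 2 sides can each give a mature strand, named 5p and 3p, and the strand that is loaded into Argonaute represses mRNAs that pair with its seed, bases 2 to 8. The miR-129-1 and miR-129-2 hairpins lie at separate places in the genome and give the same 5p strand, so that only the 3p strands carry the name of a locus. miR-129 is abundant in brain, and miR-129-5p is known as a repressor of neuronal proteins, among them the potassium channel Kv1.1, and as a part of the homeostatic scaling of synapses. The targets of the 3 probes are printed here because they decide what a comparison of arms and loci can tell, with the seed in capitals.

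rno-miR-129-5p: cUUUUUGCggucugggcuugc
rno-miR-129-1-3p: aAGCCCUUaccccaaaaag
rno-miR-129-2-3p: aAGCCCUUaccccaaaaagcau

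The 5p target, of 21 bases, had the seed UUUUUGC, which no other probe on the array shared. Both 3p targets had the seed AGCCCUU, again shared with no probe outside the family. The miR-129-1-3p target, of 19 bases, was identical to the first 19 bases of the miR-129-2-3p target, of 22 bases. The only difference between the 2 loci on this array was therefore the 3 bases in capitals in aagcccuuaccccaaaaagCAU at the 3′ end of the longer target. An RNA from the miR-129-2 locus holds every base that the miR-129-1-3p probe was designed to bind, so a signal of that probe does not show which locus the RNA came from. No run of more than 8 bases was shared between a member and any probe outside the family. The GC content of the targets was 57.1% for the 5p strand, 47.4% for miR-129-1-3p and 45.5% for miR-129-2-3p, and the median over the 532 probes tested was 50%.

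All 3 probes were detected on all 18 arrays, against a limit set on each array from its empty spots. The median of the 4 spots of miR-129-5p was 1.24 to 33.1 times this limit, that of miR-129-1-3p 9.06 to 128.4 times and that of miR-129-2-3p 21.4 to 247 times. The 5p probe thus came closest to the limit, and it did so on the core array of PostC rat 1. On the peri arrays of tMCAO rats 1, 2 and 3 it read 2.44, 2.22 and 2.125 times the limit. On those of sham rats 1, 2 and 3 it read 22.59, 5.72 and 12.52 times the limit. The part of this gap in the 5p comparison was not tested. The spots of a probe lay close together on most arrays, with a median SD on the log2 scale of 0.08 for miR-129-5p, 0.13 for miR-129-1-3p and 0.12 for miR-129-2-3p. The widest spread was that of miR-129-2-3p on the peri array of PostC rat 3, where the lowest spot read 3839 units and the highest 12190, with an SD of 0.80. The core array of tMCAO rat 1 had the widest spread of the other members, 470.5 to 954.9 units for miR-129-5p (SD 0.44) and 7396 to 14160 for miR-129-1-3p (SD 0.39). The arrays themselves differed in quality: the limit ranged from 49.1 to 566 units and the number of probes detected from 188 to 605. miR-124-3p and miR-9a-5p, which mark neural tissue, were detected on all 18 arrays. No 2 arrays held identical values, and the correlation between arrays of the same group over the tested probes ranged from 0.83 to 0.98.

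The brightest 3p values were found in the tMCAO rats and the dimmest in the sham-operated rats. Levels are given as normalized intensity on the log2 scale, on which a step of 1 is a doubling, and each is comparable only with other values of the same probe. For miR-129-2-3p the peri arrays of sham rats 1, 2 and 3 read 12.32, 12.83 and 12.88, those of the tMCAO rats 14.38, 14.06 and 13.39, and those of the PostC rats 13.02, 12.56 and 13.20. Every tMCAO value in peri was above every sham value and every PostC value. In core the values of miR-129-2-3p were 12.39, 13.37 and 12.88 in sham, 14.33, 13.92 and 12.69 in tMCAO and 13.41, 13.48 and 13.21 in PostC. Here tMCAO rats 1 and 2 stood above all other core arrays, and tMCAO rat 3 lay among the sham values, so the groups overlapped. The authors' own normalized intensities for miR-129-2-3p in peri, on a linear scale, were 5533, 7454 and 8150 units in sham and 17996, 17751 and 11551 in tMCAO.

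The miR-129-1-3p probe likewise separated tMCAO from sham in peri, but not tMCAO from PostC. Its peri arrays read 10.33, 11.37 and 10.53 in sham, 13.41, 13.41 and 12.17 in tMCAO and 12.18, 10.61 and 12.55 in PostC. The lowest tMCAO rat was above the highest sham rat, while PostC rats 1 and 3 lay among the tMCAO rats and PostC rat 2 among the sham rats. In core the values were 10.75, 12.86 and 11.78 in sham, 13.48, 12.67 and 11.11 in tMCAO and 12.05, 12.32 and 12.22 in PostC. All 3 core groups overlapped, and the sham rats alone covered more than 2 units.

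The shared 5p strand did not show this order. miR-129-5p read 10.53, 9.30 and 10.28 on the peri arrays of the sham rats, 9.49, 9.80 and 10.12 in tMCAO and 9.74, 9.83 and 9.80 in PostC. In core it read 10.19, 9.20 and 10.46 in sham, 9.68, 10.28 and 10.03 in tMCAO and 9.22, 8.98 and 10.09 in PostC. The groups overlapped in both regions, and sham rat 2 was the lowest sham rat in both.

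**Figure D1:**
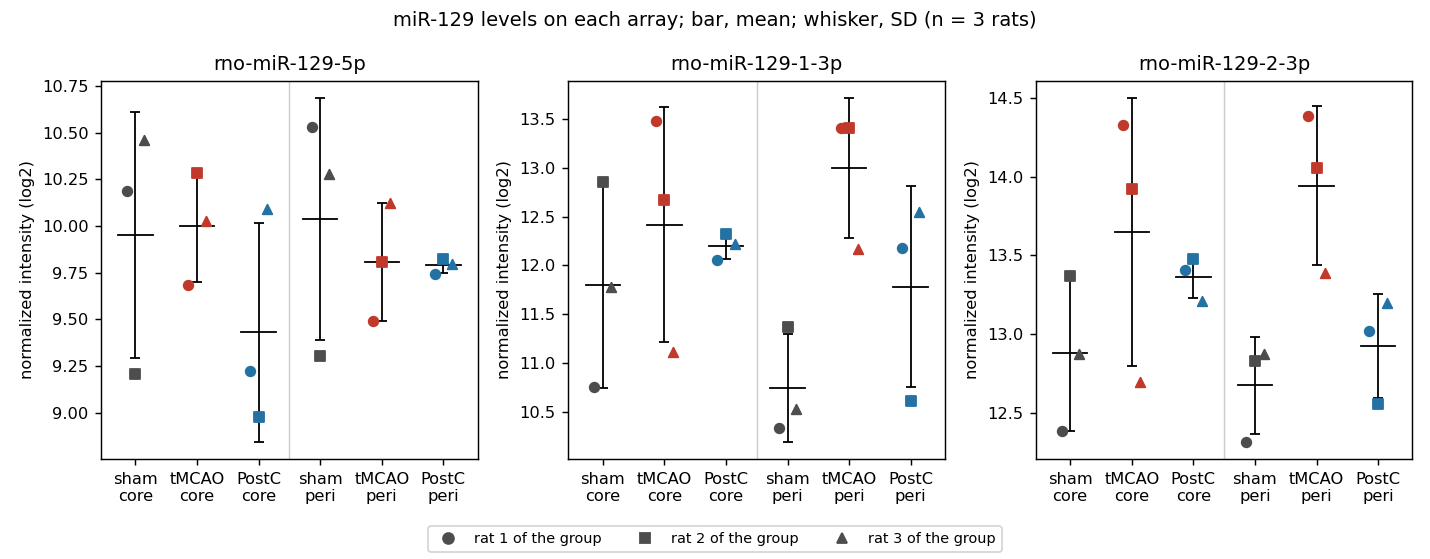
Normalized intensity (log2 scale, a separate range for each panel) of the 3 miR-129 probes on each of the 18 arrays, by condition and region; marker shapes stand for rats, horizontal bars for the mean and whiskers for the SD of 3 rats. In peri, the 3 tMCAO rats lie above the 3 sham rats for both 3p probes, 12.17 to 13.41 against 10.33 to 11.37 for miR-129-1-3p, and the 5p groups overlap.

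Ordered by group mean, miR-129-2-3p was highest in tMCAO peri (13.94 ± 0.51, SD, n = 3), followed by tMCAO core (13.65 ± 0.85), PostC core (13.37 ± 0.14), PostC peri (12.92 ± 0.33), sham core (12.88 ± 0.49) and sham peri (12.67 ± 0.31). Neighbours in this order overlapped, apart from PostC core and PostC peri, whose nearest values were 13.21 and 13.20. For miR-129-1-3p the order ran from tMCAO peri (13.00 ± 0.72) through tMCAO core (12.42 ± 1.20), PostC core (12.20 ± 0.14), sham core (11.80 ± 1.05) and PostC peri (11.78 ± 1.03) to sham peri (10.74 ± 0.55), and all neighbours overlapped. For miR-129-5p it ran from sham peri (10.04 ± 0.65) through tMCAO core (10.00 ± 0.30), sham core (9.95 ± 0.66), tMCAO peri (9.81 ± 0.32) and PostC peri (9.79 ± 0.04) to PostC core (9.43 ± 0.59), again with overlap between all neighbours. Sham peri was thus the lowest group for both 3p probes and the highest for the 5p probe.

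Set against sham, the tMCAO rats had higher 3p signals in peri. The difference was 2.26 (SE 0.51) for miR-129-1-3p, a ratio of 4.78, and 1.27 (SE 0.30) for miR-129-2-3p, a ratio of 2.41. Among the 532 probes tested, miR-129-1-3p had rank 1 and miR-129-2-3p rank 4 from the highest difference in this comparison. For miR-129-5p the difference was -0.23 (SE 0.38), and it ran from -0.60 without sham rat 2 to 0.02 without sham rat 1, which turned its sign. Of the 3 members, 2 were higher without overlap, and 15.4% of all probes tested were so in this comparison, which was in view when the members were chosen. The median difference was 1.27 over the members and -0.02 over all probes tested.

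The size of these values depended on how the arrays were brought to a common scale. The tMCAO peri arrays detected only 189 to 230 probes, against 318 to 471 on the sham peri arrays, and the part of this gap in the result was not tested. When each array was only divided by its median, the median difference of all tested probes in peri was -0.41, that of miR-129-1-3p was 1.31, that of miR-129-2-3p 0.49 and that of miR-129-5p -1.39. Relative to the median of the tested probes, miR-129-1-3p was 1.72 and miR-129-2-3p 0.90 higher and miR-129-5p lay at -0.99. With this scaling, 222 of the tested probes were lower in tMCAO peri than in sham peri without overlap, and 52 were higher. Among the members it was the 5p groups that did not overlap, with tMCAO lower, whereas both 3p probes overlapped between tMCAO and sham. The raw spots showed the same, since the spot medians of miR-129-5p were 197.3 to 768.1 units in tMCAO peri and 978.7 to 1919 in sham peri, and those of miR-129-2-3p 7245 to 14230 and 5836 to 9683. With plain background subtraction, quantile normalization, the authors' normalized intensities or a GC correction, both 3p probes were higher without overlap, as above.

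In core the differences between tMCAO and sham had the same sign for the 3p probes but were smaller than in peri. They were 0.62 (SE 0.62) for miR-129-1-3p, 0.77 (SE 0.40) for miR-129-2-3p and 0.05 (SE 0.46) for miR-129-5p. None of the 3 members separated the groups, while 16.7% of all probes tested were higher in tMCAO without overlap. The difference of miR-129-1-3p came to 0.09 without tMCAO rat 1 and to 1.28 without tMCAO rat 3. That of miR-129-2-3p came to 0.43 and 1.25 without the same rats, and that of miR-129-5p turned its sign, from -0.33 without sham rat 2 to 0.30 without sham rat 3.

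PostC was compared with sham to ask whether the family differed in the postconditioned rats, on arrays that the choice of members did not use except for the sham controls. In core the differences were 0.40 (95% interval -0.99 to 1.79) for miR-129-1-3p, 0.49 (-0.40 to 1.37) for miR-129-2-3p and -0.52 (-1.55 to 0.51) for miR-129-5p, with adjusted p-values of 0.754, 0.547 and 0.578 by limma. In peri they were 1.04 (-0.07 to 2.15), 0.25 (-0.40 to 0.90) and -0.25 (-1.07 to 0.58), each with an adjusted p of 0.995 by limma. No member passed the test, as 0% of all probes did in either region, and the intervals do not show that the groups were alike. In core, 90 probes had an unadjusted limma p under 0.05, and in peri 15 had. None of the members was higher without overlap, which held for 10.9% of all probes in core and 3.57% in peri, except that miR-129-2-3p in core separated from sham, by 0.60, with quantile normalization. That core value came to 0.04 with plain background subtraction and to 0.24 without sham rat 1. The core value of miR-129-5p ran from -0.89 without sham rat 2 to -0.27 without sham rat 3. In peri miR-129-5p came to -0.0019 without sham rat 1 and to -0.84 under median scaling. For miR-129-1-3p in peri, PostC rat 2 was the 1 rat that overlapped with sham, and the difference of 1.04 came to 1.62 without PostC rat 2, 0.65 without PostC rat 3 and 0.56 under median scaling. The peri array of PostC rat 2 had a detection limit of 52.89 and 524 detected probes, against 336 and 188 detected probes on the other PostC peri arrays, and the part of this in the difference was not tested.

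Set against tMCAO, the PostC rats had lower 3p signals in peri, by a difference of -1.22 (SE 0.51) for miR-129-1-3p and -1.02 (SE 0.30) for miR-129-2-3p, and miR-129-5p differed by -0.02 (SE 0.38). The value of miR-129-1-3p came to -0.63 without PostC rat 2. miR-129-2-3p was the only member that was lower without overlap, as 4.51% of all probes were in this direction. This separation was narrow, 13.20 against 13.39, and it was lost when the median of the 4 spots replaced their mean, which takes out the weight of 1 dim spot of PostC rat 3, as well as with the authors' normalized intensities and with median scaling. In core the differences were -0.22 (SE 0.62), -0.28 (SE 0.40) and -0.57 (SE 0.46) for miR-129-1-3p, miR-129-2-3p and miR-129-5p. Both 3p values turned positive without tMCAO rat 1, to 0.31 and 0.06, and came to -0.87 and -0.76 without tMCAO rat 3. No member separated the core groups, and 6.39% of all probes were lower in PostC without overlap. The comparisons share arrays, so the tMCAO rats enter both this and the comparison with sham.

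**Figure D2:**
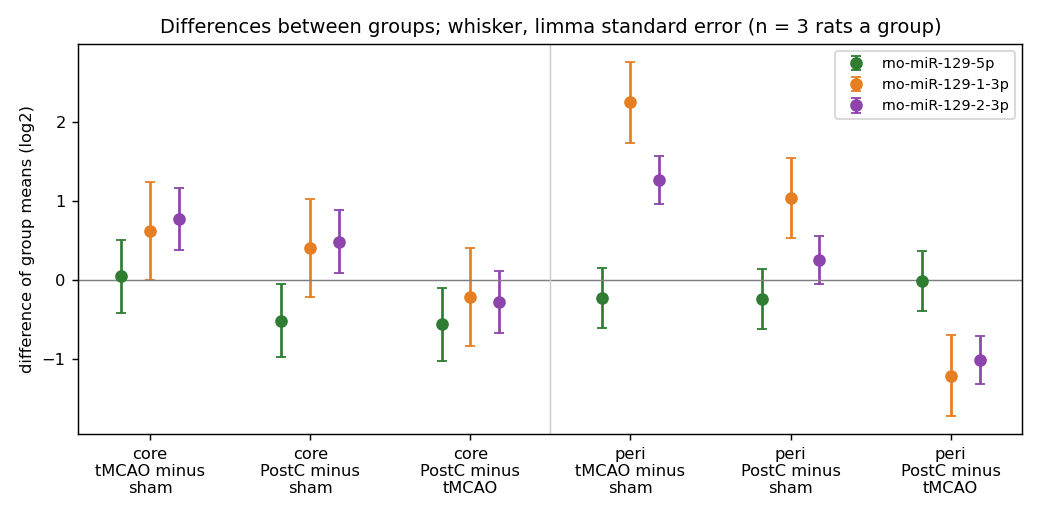
Differences of group means on the log2 scale for the 3 miR-129 probes in 6 comparisons, 3 in core and 3 in peri; whiskers are limma standard errors from 3 rats a group. The 3p probes stand at 2.26 and 1.27 for tMCAO minus sham in peri and at -1.22 and -1.02 for PostC minus tMCAO there, while the 5p probe stays between -0.57 and 0.05 in all 6.

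Core and peri of the same rat were then compared. In sham rats 1, 2 and 3 the core minus peri difference of miR-129-1-3p was 0.42, 1.49 and 1.25, so core was higher in all 3 rats. Its mean was 1.05 (95% interval 0.09 to 2.01) with an adjusted p of 0.854 by limma over all probes, of which 0% passed, 28 having an unadjusted limma p under 0.05. miR-129-2-3p had a mean difference of 0.20 (-0.35 to 0.76, adjusted p = 0.973 by limma) and miR-129-5p of -0.09 (-0.63 to 0.46, adjusted p = 0.984 by limma). The sham arrays also entered the comparison with tMCAO that was in view when the members were chosen. A low value in sham peri raises both that comparison and core minus peri. These sham results are therefore not independent of the choice of members. In PostC rats the means were 0.42 (-0.54 to 1.38) for miR-129-1-3p, 0.44 (-0.11 to 0.99) for miR-129-2-3p and -0.36 (-0.91 to 0.19) for miR-129-5p. Their adjusted limma p-values were 0.743, 0.556 and 0.582, again with 0% of all probes passing and with 53 under 0.05 before adjustment. In tMCAO rats, given as a description, the means were -0.58 ± 0.58 for miR-129-1-3p, -0.30 ± 0.35 for miR-129-2-3p and 0.19 ± 0.29 for miR-129-5p (SD, n = 3). In these rats peri was the brighter region for miR-129-2-3p in all 3 and for miR-129-1-3p in 2 of 3, but both means turned positive, to 0.45 and 0.13, under median scaling. Relative to the median of all probes in these rats under that scaling, 0.098, they were 0.35 and 0.031 higher in core. The count of 3 rats for miR-129-2-3p did not hold in the authors' normalized intensities, where tMCAO rat 1 read 20993 units in core and 17996 in peri. Relative to the median of all probes, core was also higher in 1 tMCAO rat with plain background subtraction and with quantile normalization.

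Both 3p probes followed each other over the arrays. Their levels correlated with r = 0.92 (Spearman's rho 0.90) over the 18 arrays, with r = 0.94 over the 9 core arrays and 0.92 over the 9 peri arrays. After the group means were removed r was 0.91, so rats of the same group that were bright for one probe were bright for the other. These are descriptions: the 2 arrays of a rat are not independent, and the probes share the 19 bases given above. The difference of miR-129-2-3p minus miR-129-1-3p ranged from 0.51 to 2.34 over the arrays. It averaged 1.93 ± 0.44 (SD, n = 3) in sham peri and between 0.94 and 1.23 in the other 5 groups. Between tMCAO and sham in peri it moved by -0.99 (SE 0.30) without overlap, 0.65 to 1.22 against 1.46 to 2.34, and in core by 0.15 (SE 0.39) with overlap. Thus miR-129-1-3p, the probe with the shorter target, had the wider range, and whether this belonged to a locus or to the probes cannot be told apart with these targets.

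The 5p strand did not follow the 3p strands. Over the 18 arrays miR-129-5p correlated with miR-129-1-3p at r = -0.44 (rho -0.50) and with miR-129-2-3p at r = -0.38 (rho -0.46). With group means removed the values were -0.51 and -0.49. Without the 2 arrays on which miR-129-5p lay farthest from its median they were -0.35 and -0.27. These weak correlations are likewise descriptions over arrays that share rats and 1 normalization.

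**Figure D3:**
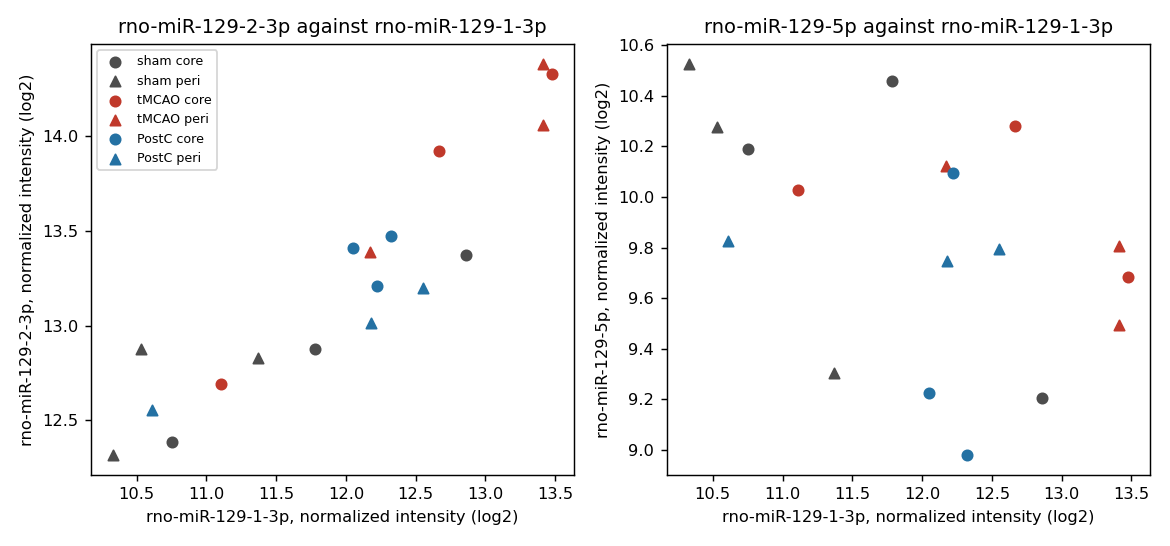
Levels of miR-129-2-3p (left) and miR-129-5p (right) against miR-129-1-3p on the 18 arrays, all as normalized intensity on the log2 scale; colours stand for conditions, circles for core and triangles for peri. The 3p probes lie along 1 line (r = 0.92), whereas the 5p probe scatters with a weak negative slope (r = -0.44).

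The difference between the arms was taken on each array as miR-129-5p minus the mean of both 3p probes. Its absolute value mixes probes of different brightness and has no meaning by itself, but its movement between groups can be read. It was -0.79, -2.80 and -1.43 on the peri arrays of sham rats 1, 2 and 3, -4.41, -3.93 and -2.66 in tMCAO and -2.85, -1.76 and -3.08 in PostC. In core it was -1.38, -3.91 and -1.87 in sham, -4.22, -3.01 and -1.87 in tMCAO and -3.51, -3.92 and -2.62 in PostC. Within each region the groups overlapped, and sham rat 2 lay within the tMCAO range in both of its samples. In all 3 tMCAO rats the value in peri was below that in core, and in all 3 sham rats it was above.

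Between tMCAO and sham the arm difference moved by -1.99 (SE 0.79) in peri and by -0.65 (SE 1.03) in core. Between PostC and sham it moved by -0.89 (SE 0.72) in peri and -0.96 (SE 0.86) in core, and between PostC and tMCAO by 1.10 (SE 0.66) and -0.32 (SE 0.78). Both arms are read on the same array, so a factor common to a whole array cancels in this difference by construction. The 5p probe was nearer the limit of detection in tMCAO peri than in sham peri, and the part of this was not tested. The peri value for tMCAO against sham ran from -2.55 without sham rat 2 to -1.55 without sham rat 1. The core value was less stable, at -1.41 without sham rat 2, -0.06 without tMCAO rat 1 and -0.03 with plain background subtraction. For PostC against sham the core value ran from -1.73 to -0.46 and the peri value from -1.45 to -0.45, each lowest without sham rat 2 and highest without sham rat 1. For PostC against tMCAO the core value ran from -0.91 without tMCAO rat 1 to 0.27 without tMCAO rat 3, which turned its direction, and the peri value from 0.70 without PostC rat 2 to 1.60 without tMCAO rat 3. To place it, the same difference was formed for the 156 other hairpins with both arms tested, a comparison added after the values were seen. Their median was -0.05 in peri, and 1 of the 156, or 0.641%, had a difference between its arms at least as negative as that of miR-129. This was miR-320, with -1.51 for its 5p and 0.51 for its 3p strand. miR-381 was as far apart in the other direction, with 1.41 and -0.62. In core 51 of the 156 hairpins, or 32.7%, were at least as negative as miR-129. The comparison of tMCAO with sham was in view when the members were chosen, so this rank is a description. Some of the 156 had an arm detected on few arrays, such as miR-126a-5p on 4, against 18 for the members. For PostC against sham, 1 of the 156 (0.641%) was at least as negative in peri and 36 (23.1%) in core. For PostC against tMCAO, 7.69% were at least as far apart in either direction in peri and 68.6% in core.

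**Figure D4:**
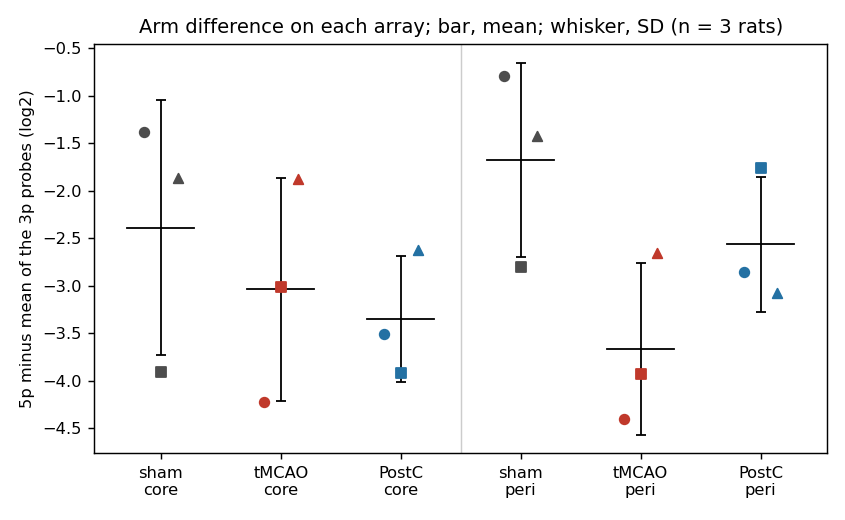
miR-129-5p minus the mean of both 3p probes (log2 scale) on each array, by condition and region; marker shapes stand for rats as in the plot of levels, bars for the mean and whiskers for the SD of 3 rats. Peri moves from -1.67 in sham to -3.66 in tMCAO and -2.56 in PostC, and the groups overlap.

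**Figure D5:**
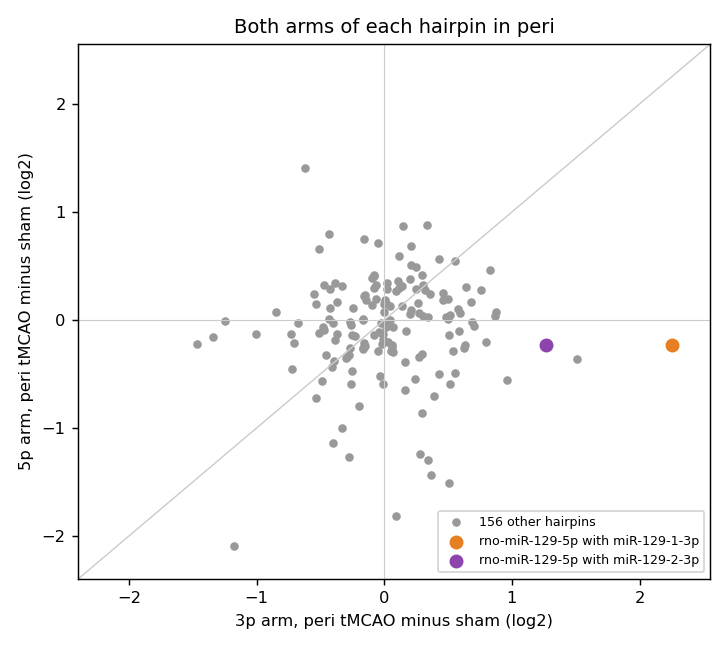
Difference between tMCAO and sham in peri (log2 scale) of the 3p arm (horizontal) and the 5p arm (vertical) for 156 hairpins in grey and for miR-129-5p paired with each of its 3p probes in colour; on the grey diagonal both arms differ equally. The miR-129 points lie at 2.26 and 1.27 on the 3p axis and -0.23 on the 5p axis.

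The probes whose levels were most like those of the members differed between the arms. For miR-129-1-3p these were miR-1839-3p (r = 0.71 over 18 arrays), miR-10a-5p (0.70), encoded in a Hox gene cluster, and miR-9b-3p (0.65). For miR-129-2-3p they were miR-10a-5p (0.77), miR-1839-3p (0.76) and miR-764-5p (0.73), which lies in an intron of the serotonin receptor gene Htr2c. For miR-129-5p they were miR-378b (0.72), miR-130a-3p (0.69) and miR-218a-2-3p (0.64), from a hairpin that also gives the neuronal miR-218a-5p. miR-10a-5p and miR-9b-3p were detected on only 4 arrays and miR-218a-2-3p on 7, so parts of these profiles lie at the limit of detection.

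Other neuronal miRNAs were set beside the family, from a list of 8 that was tested in full, among them miR-124-3p and miR-128-3p. In core, where 3.57% of all probes passed the adjusted limma test between tMCAO and sham, none of the 8 passed. Their median difference was -1.03, against -0.06 over all probes, with 5 lower and 3 higher in tMCAO. miR-137-3p, miR-153-3p, miR-218a-5p and miR-9a-5p were lower without overlap, as 25.2% of all probes were, and miR-128-3p was higher without overlap, as 16.7% were. The values ran from -2.90 (SE 0.87) for miR-153-3p, which is known to restrain synaptic vesicle proteins, to 0.42 (SE 0.40) for miR-138-5p, known as a regulator of dendritic spines. In peri, with 0.564% of all probes passing, again none of the 8 passed, with 4 lower and 4 higher, and their median was -0.05. The values there ran from -2.54 (SE 0.92) for miR-218a-5p to 0.56 (SE 0.23) for miR-128-3p. miR-218a-5p was lower without overlap, as 15.8% of all probes were, and miR-128-3p and miR-132-3p (0.28, SE 0.35) were higher without overlap, as 15.4% were. Of the 4 miRNAs of the second list, linked like miR-129-5p to synaptic scaling, none passed in either region. Their core values ran from -1.30 (SE 0.56) for miR-186-5p to 1.17 (SE 0.61) for miR-485-5p, a repressor of the vesicle protein SV2A, with a median of 0.74. miR-485-5p, miR-134-5p (0.57, SE 0.50) and miR-92a-3p (0.91, SE 0.44) were higher in tMCAO core without overlap, as 16.7% of all probes were, and miR-186-5p was lower without overlap, as 25.2% were. In peri their median was 0.36, and miR-485-5p (0.79, SE 0.31) and miR-92a-3p (0.39, SE 0.33) were higher without overlap, as 15.4% of all probes were.

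Markers of other cells were read on the same arrays. The summed level of the 3 tested leukocyte markers, of 4 on the array, was 8.08 to 8.78 in sham core and 8.79 to 9.81 in tMCAO core, and 7.82 to 8.06 and 7.78 to 8.20 in peri. miR-142-3p, a defining leukocyte miRNA, was detected on 1 of the 18 arrays. The 3 oligodendrocyte markers summed to 11.48 to 12.54 in sham peri and 11.37 to 11.86 in tMCAO peri, and the 2 endothelial markers to 12.64 to 13.06 and 12.41 to 12.78. The 2 tested red cell markers summed to 10.29 to 10.94 and 10.61 to 11.25, with miR-144-3p detected on none of the arrays. In peri, where the 3p probes were highest in tMCAO, each of these 4 sums overlapped between tMCAO and sham. None of the leukocyte markers was detected on a tMCAO peri array, and only miR-142-5p was on 1 sham peri array. The leukocyte sums in peri thus lie mostly under the limit of detection, and their overlap does not show equal leukocyte content. miR-126a-5p and miR-219a-5p were not detected on any tMCAO peri array either. Of the single markers, the red cell miRNA miR-486 was higher in peri without overlap, by 0.86 (SE 0.25) in tMCAO and 0.66 (SE 0.25) in PostC against sham, as 15.4% and 3.57% of all probes were. It was detected on none of the tMCAO peri arrays and on 1 each of the sham and PostC peri arrays, so these values lie mostly under the limit of detection, and their part in the 3p values was not tested. In core 2 of the 4 sums did not overlap between the groups, the leukocyte sum and the endothelial sum, which was 13.05 to 13.96 in sham and 11.89 to 12.88 in tMCAO, and their part in the core values was not tested. The sum of the 8 neuronal miRNAs given above was 16.70 to 16.77 in sham core, 16.34 to 16.57 in tMCAO core and 16.45 to 16.66 in PostC core. It was thus lower than sham without overlap in both groups, while in peri the groups overlapped. The part of this sum was not tested either. Among single markers, the oligodendrocyte miRNAs miR-338-3p and miR-219a-5p were lower in tMCAO core without overlap, by differences of -3.34 (SE 0.87) and -2.29 (SE 0.69), as 25.2% of all probes were, while miR-219a-2-3p stood at 0.36 (SE 0.40). miR-486 was higher in core without overlap, by 1.91 (SE 0.53), as 16.7% of all probes were. The 3 leukocyte markers went both ways in tMCAO core, with 1.56 (SE 0.31) for miR-155-5p, 1.35 (SE 0.75) for miR-223-3p and -0.46 (SE 0.33) for miR-142-5p. miR-155-5p was higher without overlap, as 16.7% of all probes were, and miR-142-5p was lower without overlap, as 25.2% were. Of the 3, only miR-155-5p passed the adjusted limma test, as 3.57% of all probes did. miR-155-5p was detected on 3 arrays, the fewest that the filter admits, 2 of them tMCAO core and 1 PostC core, so it was tested only through the groups where it was bright. Between PostC and tMCAO in peri the oligodendrocyte sum did not overlap, at 12.12 to 12.24 in PostC against 11.37 to 11.86 in tMCAO, while the other 3 sums did. miR-338-3p was higher there without overlap, by 1.63 (SE 0.62), as 18 of the 532 tested probes were. In core only the red cell sum did not overlap, at 10.52 to 10.79 in PostC against 11.50 to 12.03 in tMCAO. miR-451-5p was lower there without overlap, by a difference of -1.20 (SE 0.35), as 6.39% of all probes were. Between PostC and sham all 4 sums overlapped in peri. In core 3 of the 4 did not, with PostC at 10.77 to 12.00 for the oligodendrocyte, 12.06 to 12.88 for the endothelial and 10.52 to 10.79 for the red cell sum, against 12.09 to 14.01, 13.05 to 13.96 and 11.22 to 12.06 in sham. The part of these sums in the PostC comparisons was not tested.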

How the data were processed

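For each of 18 arrays the authors deposited the median spot intensity of the Cy5 image, not background-subtracted or normalized. Their second deposit holds intensities after background subtraction and LOWESS normalization, not log-transformed; the combination of spots in it is not stated. RNA was 3′-tailed, tagged and hybridised to probes for miRBase miRNAs. Extraction is given as miRNeasy by the labels and as Trizol by the methods.

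Here spot intensities were corrected by normexp (offset 50) on all 3968 spots, converted to log2, averaged over the 4 spots of each of 761 probes and normalized by cyclic loess. Detection on an array required a median spot above the 612 empty spots (their median plus 3 scaled median absolute deviations), and tests covered the 532 probes with detection on 3 or more arrays. All differences are relative to the other miRNAs. limma 3.58.1 in R 4.3.3 (lmFit, eBayes with a variance trend, Benjamini-Hochberg at 0.05 over all 532) was fitted to the 9 core arrays, to the 9 peri arrays and to the core minus peri differences of the 9 rats, with the rat as replicate. The scripts were tested on simulated data. For 3 rats a group the smallest p of an exact permutation test is 0.1. The number of arrays and the signal over background limit the precision.

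The members and all lists were chosen with earlier results of these data known. Named were the 3 members, the 3 probes with the highest Pearson r to each, and from the 2 neuronal lists the probes with the highest and lowest difference in core; the other miRNAs of those lists, the hairpins miR-320 and miR-381 and the marker miRNAs were named after their values were seen. Alternatives were plain subtraction (floor 1), quantile normalization, median scaling, the authors' table (floor 1 or 50), a GC correction, other filters and detection limits, no variance trend, the replicate block, only the 2 groups compared, the methods' Student test, a joint fit of both regions (rat as random block), and each rat left out. The median of the 4 spots was added after seeing the data. No hairpin sequence or genome was used here, so no positions are given.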

Additional observations from a re-analysis of the deposited data

Results flagged for a closer look

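The core minus peri difference of miR-129-2-3p had opposite signs in all rats of 2 pairs of conditions. It was -0.06, -0.13 and -0.69 in the tMCAO rats, 0.07, 0.54 and 8e-04 in the sham rats and 0.39, 0.92 and 0.01 in the PostC rats. The mean of the sham rats was 0.50 above that of the tMCAO rats, and the mean of the PostC rats 0.74 above it. Under median scaling the means were -0.032 in sham, 0.45 in tMCAO and 0.60 in PostC, and relative to the median of all probes under that scaling they were 0.068, 0.35 and 0.59. Relative to its own median, core was then higher in 2 of 3 rats of each condition, so that the sign pattern was lost, and the order of the sham and tMCAO means turned. The pattern was also lost elsewhere. Relative to the median, core was higher in 1 tMCAO rat with plain subtraction, with quantile normalization and with the authors' table at either floor. In the main processing it was higher in 2 of 3 PostC rats by that measure. Neither difference was tested, because the tMCAO arrays were in view when the members were chosen, and 1 sham rat and 1 PostC rat lay at almost 0.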

How the results depend on the processing

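Of the 12 tested member results, none passed the adjusted threshold under any of their 288 alternatives in all. Median scaling moved the most values. With it the median over the members for tMCAO against sham in peri was 0.49, and core minus peri in tMCAO rats turned to 0.45 for the median and for miR-129-2-3p and to 0.13 for miR-129-1-3p. With it, too, miR-129-2-3p was -0.14 for PostC against sham in peri and -0.032 for core minus peri in sham, and miR-129-5p 0.56 for PostC against tMCAO in peri; the cause was not tested. When each rat was left out in turn, miR-129-1-3p ranged from -0.12 (without sham rat 1) to 0.93 for PostC against sham in core and from -0.23 (without PostC rat 2) to 0.79 for core minus peri in PostC. miR-129-5p ranged from -0.22 to 0.042 (without sham rat 1) for core minus peri in sham.

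The number of probes past the threshold for PostC against sham in core was 0, and it was 2 with plain subtraction (miR-149-3p and miR-208a-5p), 6 with quantile normalization, 1 with the authors' table at a floor of 50 (miR-532-5p), 3 with probes detected on all arrays (miR-21-5p, miR-411-5p and miR-6215), 1 without the variance trend (miR-19b-3p), 11 with both regions in 1 fit, and 0 to 8 when a rat was left out (8 without PostC rat 2). In peri the methods' Student test gave 1 (miR-1956-5p) and limma 0. With the replicate number as a block the counts stayed at 0 and 0, and no call changed. The numbers only name the rats: the deviations of same-numbered rats from their group means correlated between -0.45 and 0.44. The files name no chip or scan batch, so that alternative was not run. Dimness limits miR-129-5p most, whose signal came within 1.24 times the detection limit.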
